A study of Mus musculus with 10 samples.

Results

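The 50 genes described here encode proteins that carry a cell through mitosis, and they were chosen as rows of the deposited count table by gene symbol. All 50 were found among the 18407 genes of the table, and all 50 passed the filter on low counts, which kept 10789 genes. The samples are cultures of NMC, an established mouse line of cholangiocytes, which are the lining epithelium of bile ducts, grown for 6 days as 3D double spheroids without further treatment. The comparison is between collagen I at 1 mg/mL (5 libraries) and a laminin-rich matrix that mixes laminin with collagen I at 3:1 by volume (5 libraries), so collagen I was present in both groups. All 10 come from 1 cell line. The submitters call them biological replicates without saying which came from separate cultures, and the p-values therefore reflect only variation among these samples, which may be technical.

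In mitosis, the kinase CDK1 with cyclin B drives the cell into division, condensin packs the chromosomes, and a spindle of microtubules attaches to them at kinetochores. The spindle checkpoint holds the cell until every kinetochore is attached. The ubiquitin ligase APC/C with its activator CDC20 then marks securin and cyclin B for destruction, sister chromatids part, and cytokinesis divides the cell. Most of these genes are transcribed mainly in G2 and M phase, so in bulk RNA their level follows the share of dividing cells, and bile duct epithelium, which divides rarely at rest, can re-enter the cycle in culture or injury. Fewer dividing cells and less mRNA per dividing cell cannot be told apart in bulk samples.

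G2 and M phase genes are known for a promoter element called the CHR, with the letters TTTGAA or TTCGAA, which the MuvB complex binds, and for CCAAT boxes, which NF-Y binds. RefSeq promoter windows (250 bases before to 50 after the start site, build GRCm38.p6) matched 42 of the 50 genes by symbol. On either strand, TTTGAA or TTCGAA occurred in the windows of 32 of them (76.2%) and in 18.0% of the 14648 genes of the table with a window. CCAAT occurred in 32 (76.2%, against 42.4% of genes), and both motifs in 29 (69.0%, against 7.52%). A CHR match and a CCAAT match overlapped in 1 promoter, that of Cdca8, and a match describes letters, not binding. The following stretches begin 120 bases before the RefSeq start site and end before the first annotated start. They are shown because Top2a, Kif11 and Ncapg differed between collagen libraries of different code letters in the test given further on, while Cdk1, Cdc20 and Ccnb2 did not pass it. All of these windows hold a CHR match. The matches of Ccnb2, however, begin at offsets of -167 and 4 bases from the base of its start site and lie outside the stretch. Capitals mark the CHR letters and the CCAAT box on either strand.
Top2a, chr11:99024190-99024309, minus strand: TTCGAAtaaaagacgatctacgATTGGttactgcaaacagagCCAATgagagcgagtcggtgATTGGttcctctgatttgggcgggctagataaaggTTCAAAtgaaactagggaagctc
Kif11, chr19:37376262-37376381, plus strand: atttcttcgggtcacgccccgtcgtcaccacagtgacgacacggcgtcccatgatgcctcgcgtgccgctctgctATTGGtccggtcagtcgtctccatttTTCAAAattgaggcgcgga
Ncapg, chr5:45669805-45669918, plus strand: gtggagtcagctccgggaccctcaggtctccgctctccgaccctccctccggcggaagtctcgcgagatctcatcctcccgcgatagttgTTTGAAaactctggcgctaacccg
Cdk1, chr10:69352939-69353032, minus strand: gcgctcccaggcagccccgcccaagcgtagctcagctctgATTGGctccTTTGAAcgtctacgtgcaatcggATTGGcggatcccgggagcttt
Cdc20, chr4:118437353-118437463, minus strand: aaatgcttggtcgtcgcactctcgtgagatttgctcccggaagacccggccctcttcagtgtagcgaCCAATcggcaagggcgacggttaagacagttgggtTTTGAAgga
Ccnb2, chr9:70421555-70421674, minus strand: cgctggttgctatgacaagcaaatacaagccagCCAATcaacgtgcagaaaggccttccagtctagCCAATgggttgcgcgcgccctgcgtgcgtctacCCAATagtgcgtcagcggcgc

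All 50 genes were expressed in every library. Single values ran from 253 to 11549 counts per gene and library, far above the limit of 3 counts that a count of 0 allows. Library totals ran from 4424725 to 8129979 counts. The 50 genes together took 1.48%, 1.51%, 1.27%, 1.14% and 1.24% of all counts in collagen replicates 1 to 5, and 1.31%, 1.32%, 1.29%, 1.24% and 1.19% in laminin replicates 1 to 5. The laminin values lay within the range of the collagen values. Below, levels are CPM, counts adjusted for the size of each library. Per kilobase of the longest annotated transcript, the highest mean levels were those of Top2a, the topoisomerase that untangles sister chromatids (248 CPM per kb), Ccna2, cyclin A2 (211), and Smc4, a condensin ATPase (184). The lowest was that of Cenpe, a kinetochore motor protein (17.3 CPM per kb).

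Between the matrices, none of the 50 mitosis genes passed the test (edgeR, quasi-likelihood F test, Benjamini-Hochberg adjusted over all tested genes, threshold 0.05), where 0.148% of all genes tested did (0.00927% lower). Adjusted p ran from 0.109 for Spc25 to 0.989 for Smc2. The log2 difference, laminin minus collagen, was below 0 for 38 genes and above 0 for 12. Its median was -0.12, a fold of 0.922, against 0.01 over all genes tested, of which 48.3% lay below 0. At an unadjusted p under 0.05 there were 4 of the 50 genes (Spc25, Nusap1, Ccnb2 and Cdk1), all below 0, beside 11.7% of all genes in either direction and 4.95% below 0. DESeq2 called 2 genes, Spc25 (adjusted p = 0.00169) and Nusap1 (adjusted p = 0.0405), both lower in laminin, where it called 0.556% of all genes lower, and limma-voom called 0. The 95% interval of the difference lay within 1.5-fold in both directions for 46 genes. It reached 1.5-fold lower for Spc25, Nusap1 and Ube2c, and 1.5-fold higher for Mki67. These intervals take the libraries of a matrix as alike and leave out the differences between code letters given further on.

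**Figure D1:**
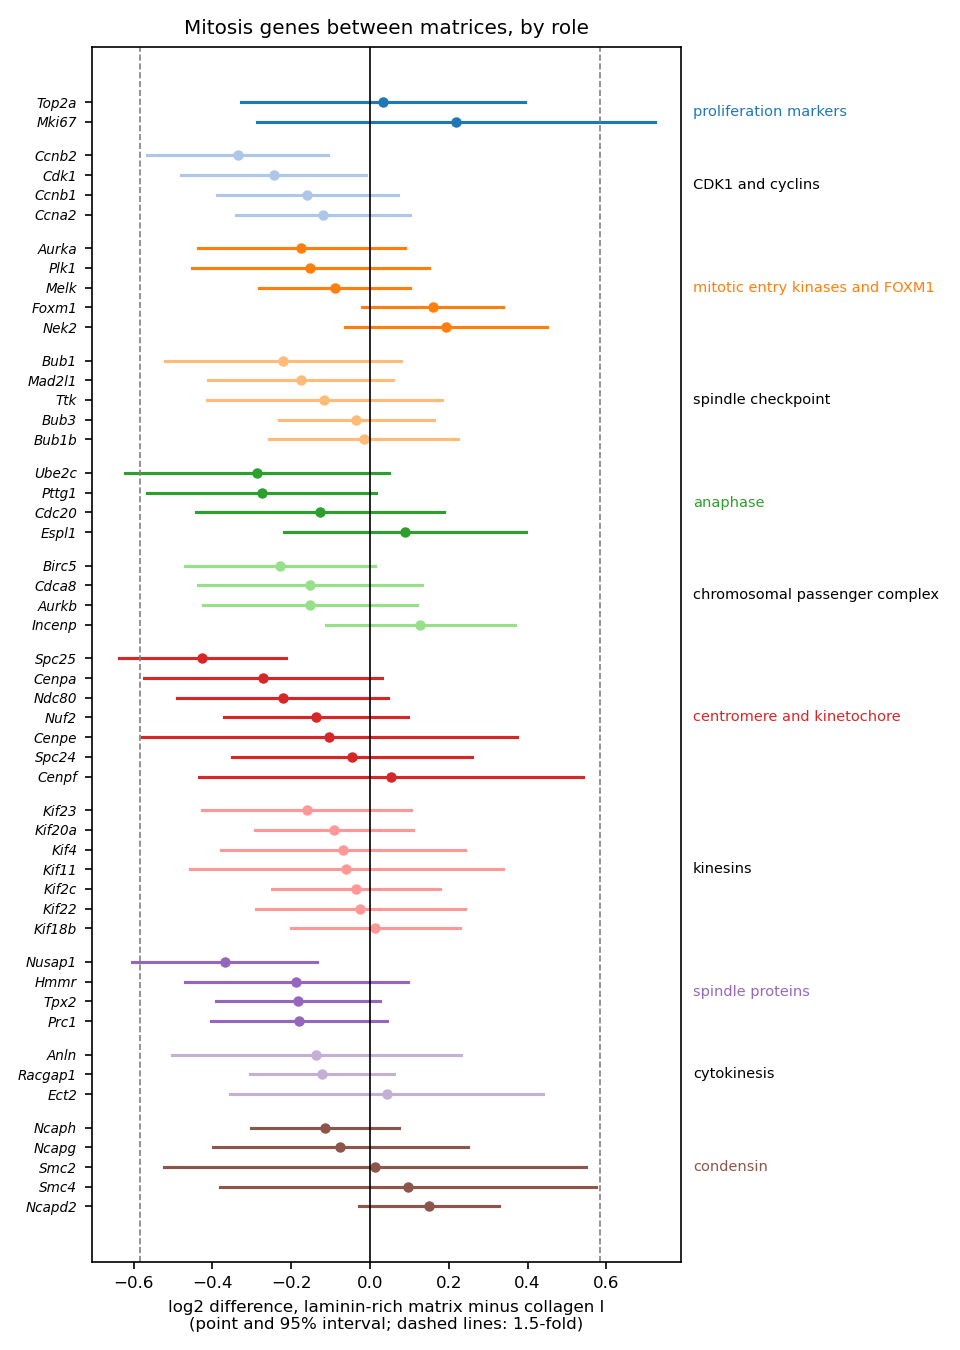
Each point is the log2 difference of 1 gene, laminin-rich matrix minus collagen I (5 libraries each), with its 95% interval from edgeR, grouped by role, and the dashed lines mark 1.5-fold. Spc25 is lowest at -0.43 and Mki67 highest at 0.22, and no gene passed the test over all genes.

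CDK1 and its cyclins trigger mitosis, and all 4 genes gave differences below 0, from -0.34 to -0.12, with none passing. Ccnb2, cyclin B2, stood at 192, 203, 199, 235 and 219 CPM in collagen replicates 1 to 5 and at 199, 162, 145, 154 and 171 CPM in laminin replicates 1 to 5. Only laminin replicate 1 reached into the collagen range, and the log2 difference was -0.34, SE 0.11, adjusted p = 0.254. Cdk1, the kinase itself, was at 322, 319, 337, 345 and 343 CPM in the collagen libraries. In laminin it was at 340.3, 252, 242, 261 and 311 CPM, with replicate 1 inside the collagen range and the other 4 below it, for a log2 difference of -0.24, SE 0.11, adjusted p = 0.407. Ccnb1, cyclin B1, was at 348, 319.6, 315, 326 and 313 CPM in the 5 collagen libraries and at 361, 272, 298, 267 and 254 CPM in the laminin libraries, with a log2 difference of -0.16, SE 0.11, adjusted p = 0.610. Laminin replicate 1, at 361 CPM, was the highest of all 10 libraries, and the other 4 laminin libraries lay below every collagen library. Ccna2, which acts in S phase and early mitosis, gave -0.12 (SE 0.10), from 597 to 688 CPM in collagen against 499 to 682 in laminin.

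Mki67 and Top2a, the usual markers of proliferating cells, gave differences above 0 that turned below 0 against letter B libraries alone, as given further on. Mki67, which coats mitotic chromosomes, was at 1011, 1160.4, 635, 474 and 557 CPM in collagen replicates 1 to 5 and at 729.5, 1002, 1031, 989 and 712 CPM in laminin replicates 1 to 5. The collagen values spanned a wider range than the laminin values and enclosed them, and the log2 difference was 0.22, SE 0.23, adjusted p = 0.772. Top2a was at 1631, 1645, 1218, 875 and 1032 CPM in collagen and at 1383, 1319.6, 1389.8, 1325 and 1137 CPM in laminin, in the same order of replicates. Here too the laminin values lay inside the collagen range, with a log2 difference of 0.03, SE 0.17, adjusted p = 0.955.

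Among the mitotic entry kinases and their transcription factor, 3 of 5 genes lay below 0 and 2 above. Foxm1, a transcription factor that drives G2 and M phase genes, was at 249, 245, 275, 255 and 274 CPM in collagen and 293, 305, 290.04, 289.98 and 272 CPM in laminin. All laminin libraries but replicate 5 lay above every collagen library, and the log2 difference was 0.16, SE 0.08, adjusted p = 0.475. Nek2, a kinase that parts the centrosomes, was at 122, 113, 120.5, 91.4 and 97.2 CPM in the 5 collagen libraries and at 142, 129, 132, 107 and 111 CPM in the laminin libraries, with a log2 difference of 0.19, SE 0.12, adjusted p = 0.564. Its groups overlapped. Plk1, which acts from entry to cytokinesis, was at 132, 149.6, 169, 216 and 203 CPM in collagen and 179, 152, 145, 140.3 and 167 CPM in laminin, and its groups overlapped (log2 difference -0.15, SE 0.14, adjusted p = 0.720). Aurka, which builds the spindle poles, and Melk, another kinase of this phase, gave -0.17 (SE 0.12) and -0.09 (SE 0.09). Aurka ranged over 120.03 to 169.7 CPM in collagen against 109.7 to 155 in laminin, and Melk over 104 to 129.96 CPM in collagen against 104 to 113 in laminin.

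All 5 spindle checkpoint genes lay below 0, from -0.22 to -0.02, and none passed. Bub1b, which encodes BUBR1, an inhibitor of APC/C, was at 201, 203, 218, 187 and 196 CPM in collagen and 250.3, 183, 199.9, 191 and 171 CPM in laminin. Laminin replicate 1 was highest and replicate 5 lowest of all 10 libraries (log2 difference -0.02, SE 0.11, adjusted p = 0.970). Bub3, its binding partner, was at 157, 155, 174, 190.5 and 183 CPM in the 5 collagen libraries and at 179, 166, 163, 164 and 166 CPM in the laminin libraries, a log2 difference of -0.04, SE 0.09, adjusted p = 0.912. The laminin values lay inside the collagen range. The kinases Bub1 and Ttk gave -0.22 (SE 0.14) and -0.12 (SE 0.14), and Mad2l1, which encodes MAD2, gave -0.18 (SE 0.11). Bub1 ranged over 101 to 161 CPM in collagen against 95.6 to 123 in laminin, Ttk over 57.8 to 86.2 CPM in collagen against 57.8 to 75.0 in laminin and Mad2l1 over 175 to 238 CPM in collagen against 148 to 189 in laminin. In each of these the 2 ranges overlapped.

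Of the 4 anaphase genes, 3 lay below 0. Ube2c, the ubiquitin-conjugating enzyme of APC/C, was at 169, 199, 191, 263 and 234 CPM in collagen and at 222, 174, 149, 134 and 187 CPM in laminin. The groups overlapped, with laminin replicates 1, 2 and 5 inside the collagen range and replicates 3 and 4 below it (log2 difference -0.29, SE 0.15, adjusted p = 0.499). Pttg1, which encodes securin, was at 134, 141, 134, 190.1 and 162 CPM in the 5 collagen libraries and at 147, 122, 109, 106 and 146 CPM in the laminin libraries, with a log2 difference of -0.27, SE 0.13, adjusted p = 0.454. Its groups overlapped. Cdc20 was at 174, 166, 219.7, 235 and 234 CPM in collagen and 247, 181, 164, 160.2 and 189.9 CPM in laminin, where replicate 1 was the highest library of all (log2 difference -0.13, SE 0.15, adjusted p = 0.789). Espl1, which encodes separase, the protease that cuts cohesin, gave 0.09 (SE 0.14), from 95.5 to 159 CPM in collagen against 112 to 162 in laminin.

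In the chromosomal passenger complex, which corrects faulty spindle attachments, 3 of 4 genes lay below 0. Birc5, which encodes survivin, was at 139.8, 151, 144, 172 and 159 CPM in collagen and 155, 119, 113, 122 and 145 CPM in laminin, with replicates 1 and 5 of laminin inside the collagen range and the other 3 below it (log2 difference -0.23, SE 0.11, adjusted p = 0.453). The kinase Aurkb gave -0.15 (SE 0.12) and Cdca8, which encodes borealin, -0.15 (SE 0.13). Cdca8 was at 96.7, 96.6, 109, 132 and 129 CPM in collagen and 121, 98.8, 88.3, 88.0 and 111 CPM in laminin, so its groups overlapped, as did those of Aurkb (195 to 260.2 CPM in collagen against 169 to 257 in laminin). Incenp, the scaffold of the complex, lay above 0, at 389, 416, 390.1, 285 and 353 CPM in the 5 collagen libraries and at 428, 412, 407, 359 and 398 CPM in the laminin libraries, with a log2 difference of 0.13, SE 0.11, adjusted p = 0.699. Its groups overlapped.

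The lowest difference of all 50 genes was that of Spc25, a subunit of the NDC80 complex that holds microtubules at the kinetochore. Spc25 lies on chromosome 2 from 69193895 to 69206194 (GRCm38). It stood at 119.6, 112, 102, 120.5 and 107 CPM in collagen replicates 1 to 5 and at 84.5, 83.9, 76.3, 77.5 and 95.2 CPM in laminin replicates 1 to 5. Every laminin library lay below every collagen library, and the fold was 0.744 (log2 difference -0.43, SE 0.10, adjusted p = 0.109). The other 3 subunits of the same complex gave -0.22 (SE 0.12) for Ndc80, -0.14 (SE 0.11) for Nuf2 and -0.04 (SE 0.14) for Spc24. Their ranges were 125 to 192 CPM in collagen against 114 to 140.3 in laminin for Ndc80, 65.1 to 84.6 CPM in collagen against 61.6 to 77.5 in laminin for Nuf2 and 45.2 to 56.8 CPM in collagen against 41.2 to 66.6 in laminin for Spc24, all overlapping. Cenpa, the histone that marks centromeres, was at 145, 136, 165, 199 and 187 CPM in the 5 collagen libraries and at 161, 134, 114, 120.04 and 161 CPM in the laminin libraries, with a log2 difference of -0.27, SE 0.14, adjusted p = 0.468. Its groups overlapped. Cenpf, a large protein of the outer kinetochore, was at 263, 291, 168, 131 and 146 CPM in collagen and 174, 225, 259, 222 and 156 CPM in laminin, and the laminin values lay within the collagen range (log2 difference 0.05, SE 0.22, adjusted p = 0.947). Cenpe gave -0.10 (SE 0.22), from 97.4 to 209.9 CPM in collagen against 99.997 to 145 in laminin.

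Spindle proteins included the gene with the second lowest difference. Nusap1, which bundles microtubules near chromosomes, lies on chromosome 2 from 119618298 to 119651244 (GRCm38). It was at 304, 317, 244, 257 and 259 CPM in collagen and 223, 243, 201, 187 and 214 CPM in laminin, replicates 1 to 5 in order. The groups did not overlap, although laminin replicate 2 lay just under collagen replicate 3, and the fold was 0.774 (log2 difference -0.37, SE 0.11, adjusted p = 0.225). The other 3, Tpx2, which activates Aurora A, Prc1, which crosslinks midzone microtubules, and Hmmr, a microtubule-associated protein, gave -0.18 (SE 0.10), -0.18 (SE 0.10) and -0.19 (SE 0.13). Tpx2 ranged over 266 to 336 CPM in collagen against 238 to 279 in laminin, Prc1 over 399.7 to 526 CPM in collagen against 372 to 444 in laminin and Hmmr over 168 to 238 CPM in collagen against 158 to 218 in laminin. Of the 7 kinesins, 6 lay below 0, from -0.16 to 0.01 over all 7. Kif11, the motor that pushes spindle poles apart, was at 733, 717, 517, 354 and 428 CPM in collagen and 562, 559, 553, 490.2 and 473 CPM in laminin, and the laminin values lay inside the wide collagen range (log2 difference -0.06, SE 0.18, adjusted p = 0.926). The motors Kif20a and Kif23, which act in cytokinesis, gave -0.09 (SE 0.09) and -0.16 (SE 0.12). Kif2c, which takes microtubules apart at centromeres, gave -0.04 (SE 0.10), and Kif18b, which acts on astral microtubules, 0.01 (SE 0.10). The chromosome-bound motors Kif4 and Kif22 gave -0.07 (SE 0.14) and -0.02 (SE 0.12).

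For cytokinesis, Anln, which encodes the actin-binding protein anillin of the contractile ring, was at 519, 503, 374, 269 and 339 CPM in collagen and 405, 414, 343, 328 and 334 CPM in laminin. The laminin values again lay inside the collagen range (log2 difference -0.14, SE 0.17, adjusted p = 0.806). Racgap1 and Ect2, partners that position the ring through RhoA, gave -0.12 (SE 0.08) and 0.04 (SE 0.18), with ranges of 440.00 to 477 CPM in collagen against 389 to 468 in laminin and of 222 to 444 CPM in collagen against 291 to 403 in laminin. In condensin, 3 of 5 subunits lay above 0. Ncapd2 was at 421, 399, 404, 371 and 418 CPM in collagen and 425, 464, 453, 461 and 429 CPM in laminin. All laminin libraries lay above all collagen libraries, by a log2 difference of 0.15, SE 0.08, adjusted p = 0.510. Smc4 was at 1065, 1079.5, 710.1, 438 and 546 CPM in collagen and 849, 912, 813, 739 and 791 CPM in laminin, with the laminin values inside the collagen range (log2 difference 0.10, SE 0.22, adjusted p = 0.902). The remaining condensin genes gave 0.01 (SE 0.25) for Smc2 (below 0 without the filter on low counts), -0.08 (SE 0.15) for Ncapg and -0.11 (SE 0.09) for Ncaph. In all, 2 of the 50 genes had non-overlapping groups with laminin lower (background 1.3% of genes tested), and 1 with laminin higher (background 1.94%).

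**Figure D2:**
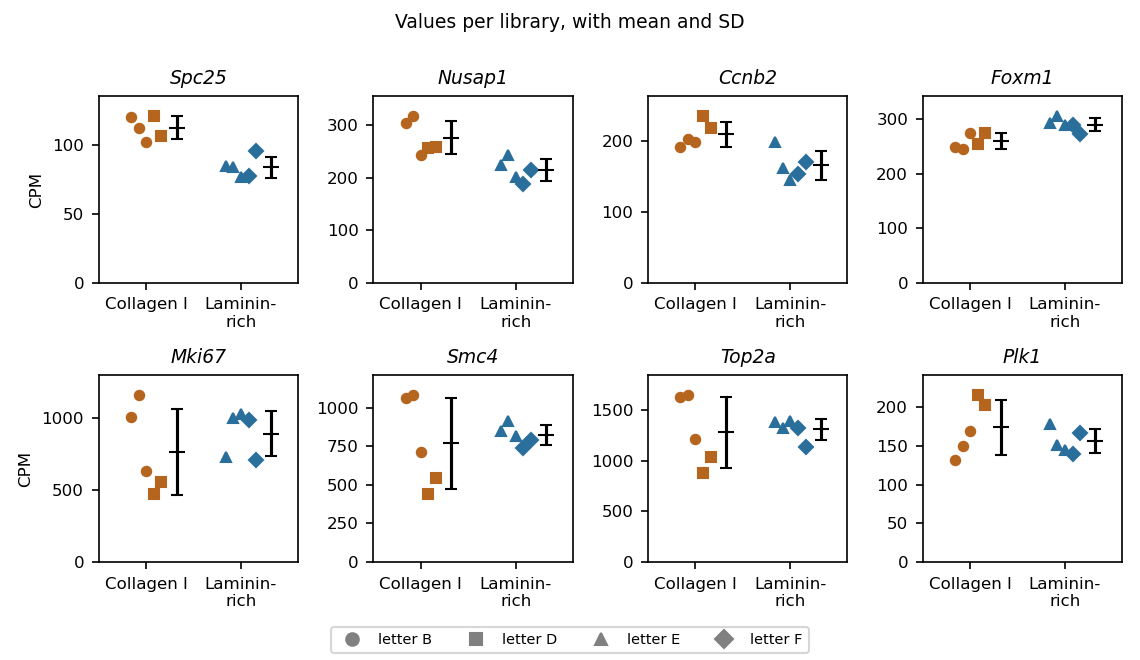
CPM of 8 genes in each library, by matrix, with the mean and SD of each group of 5 beside the points and the marker shape giving the letter of the library code. Spc25 and Nusap1 separate the matrices, while in Mki67, Smc4 and Top2a the letter D libraries of collagen are the lowest of all 10 and collagen replicates 1 and 2 (letter B) are at or near the top.

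Related gene lists gave the same count of calls in edgeR, 0 in each. Of 71 further mitosis genes outside the 50, 48 lay below 0 and 23 above, with a median of -0.11. Of the 17 APC/C subunits and regulators, 15 lay below 0 (median -0.16). Among 38 DNA replication and G1/S genes, 17 lay below 0 and 21 above (median 0.02), and among 22 regulators of mitotic gene transcription, 9 below and 13 above (median 0.05). At an unadjusted p under 0.05 in edgeR there were 9 of the 71 further mitosis genes, 3 of the 17 of the APC/C list, 2 of the 38 of the replication list and 2 of the 22 regulators. Over all genes the share was 11.7%, so these counts set no list apart. Mybl2, the B-MYB factor that works with MuvB, averaged 97.0 ± 18.8 CPM over collagen and 95.3 ± 18.7 CPM over laminin libraries (SD, n = 5). Pcna, the sliding clamp of replication, gave 0.05 (SE 0.10), and Cdkn1a, which encodes the cell cycle inhibitor p21, -0.20 (SE 0.24). Ccnd1, cyclin D1 of G1 phase, was at 182 CPM in laminin replicate 1 and at 24.2 to 56.9 CPM in the other laminin libraries. In collagen it was at 33.9 to 93.7 CPM, and the log2 difference was -0.12 (SE 0.49, adjusted p = 0.947 in edgeR). The cohesin (13 genes), cell cycle exit (12) and G1 cyclin and kinase (7) lists had medians of 0.06, 0.01 and -0.07, with 0, 0 and 1 genes at an unadjusted p under 0.05.

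The epithelial keratins Krt8, Krt18 and Krt19 were abundant, each at a mean of 807 CPM or more in both groups, while Krt7, another biliary keratin, was at means of 6.80 CPM in collagen and 3.34 CPM in laminin. The 12 cholangiocyte markers, 10 with a mean of 1 CPM or more and 9 tested, summed to 3619.5 to 5711 CPM in collagen and 3631 to 4951 CPM in laminin. Markers of other cell types summed to 88.5 to 137 CPM in collagen and 136 to 185 CPM in laminin for hepatocytes (8 genes, 4 with a mean of 1 CPM or more, Cyp3a11 at 0), and to 26.2 to 34.3 CPM in collagen and 24.4 to 57.4 CPM in laminin for fibroblasts and stellate cells (10 genes, 6 at 1 CPM or more, Lrat at 0). The sums were 3.89 to 8.14 CPM in collagen and 3.68 to 5.84 CPM in laminin for leukocytes (6 genes, 1 at 1 CPM or more, Adgre1 at 0) and 0 to 0.851 CPM in collagen and 0.230 to 0.959 CPM in laminin for endothelial cells (6 genes, 0 at 1 CPM or more, Cdh5 and Kdr at 0). The part of the hepatocyte and fibroblast markers in the mitosis results was not tested.

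The SD over libraries, in CPM, was larger in collagen than in laminin for 37 of the 50 genes. For 37, the difference between collagen libraries of different code letters exceeded the difference between matrices in size. The letter difference rests on fewer libraries than the matrix difference. Neither count was made over all genes, so they do not show a trait particular to the 50. Library codes in the labels carry a letter whose meaning is not stated, B for collagen replicates 1 to 3 and D for replicates 4 and 5. In the D libraries, 10 of the 50 genes fell and 1 rose relative to B (edgeR with Benjamini-Hochberg adjustment), beside 15.8% of all genes in either direction, 10.4% of all genes tested that fell and 5.42% that rose. At an unadjusted p under 0.05 there were 20 of the 50, beside 37.3% of all genes. The 10 were Smc2, Smc4, Mki67, Cenpe, Cenpf, Kif11, Ect2, Top2a, Anln and Ncapg, and the gene that rose was Plk1.

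The condensin ATPases Smc2 and Smc4 fell furthest. Smc2 was at 352, 365, 211, 133 and 167 CPM in collagen replicates 1 to 5 and at 229.5, 283, 278, 235 and 214 CPM in laminin, a fold of 0.485 in D relative to B (log2 difference -1.04, SE 0.22, adjusted p = 0.0277). For Smc4, whose collagen values are given above, the fold was 0.517 (log2 difference -0.95, SE 0.19, adjusted p = 0.0277). Mki67 fell to 0.551 of its level in B (log2 difference -0.86, SE 0.25, adjusted p = 0.0405) and Cenpe, at 189, 209.9, 115, 98.1 and 97.4 CPM in collagen and 126, 145, 144, 145 and 99.997 CPM in laminin, to 0.571 (log2 difference -0.81, SE 0.23, adjusted p = 0.0385). In each of these genes the D libraries were the lowest of the 5, and collagen replicate 3, also of letter B, lay between them and replicates 1 and 2. Plk1 rose, from 150.3 CPM on average in B to 209 CPM in D (log2 difference 0.48, SE 0.15, adjusted p = 0.0465). Ube2c, Cdca8 and Cenpa gave 0.42 (SE 0.18), 0.38 (SE 0.16) and 0.37 (SE 0.17) without passing. CDK1 and its cyclins gave -0.04 to 0.20, and none of those 4 passed.

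The calls between letters depended on single libraries, for the 50 genes and for all genes alike. In the absence of collagen replicate 1, 2 or 4, edgeR called 0 mitosis genes and 0% of all genes. At an unadjusted p under 0.05 those fits held 11, 13 and 9 mitosis genes, beside 23.5%, 27.2% and 12% of all genes. It called 3 of the 50 when collagen replicate 5 was left out (5.85% of all genes) and 17 when collagen replicate 3 was (33.8%). It called 2 when laminin replicate 2 was left out (3.3%) and 6 when laminin replicate 3 was (11.7%), in a model that fits the 4 letters together. Without collagen replicate 4 or 5, letter D is a single library, given the spread of the other letters. In the laminin libraries, letter F (replicates 4 and 5) against letter E (replicates 1 to 3) gave 0 calls among the 50 genes in edgeR, beside 0% of all genes. DESeq2 also called 0 of the 50, and its share over all genes is not given. At an unadjusted p under 0.05 in edgeR there was 1, beside 3.84% of all genes. Between F and E, 42 of the 50 lay below 0, with a median of -0.11 and a range of -0.33 to 0.16, beside a median of 0.005 over all genes. That median of the 50 was close in size to the one between the matrices, -0.12.

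**Figure D3:**
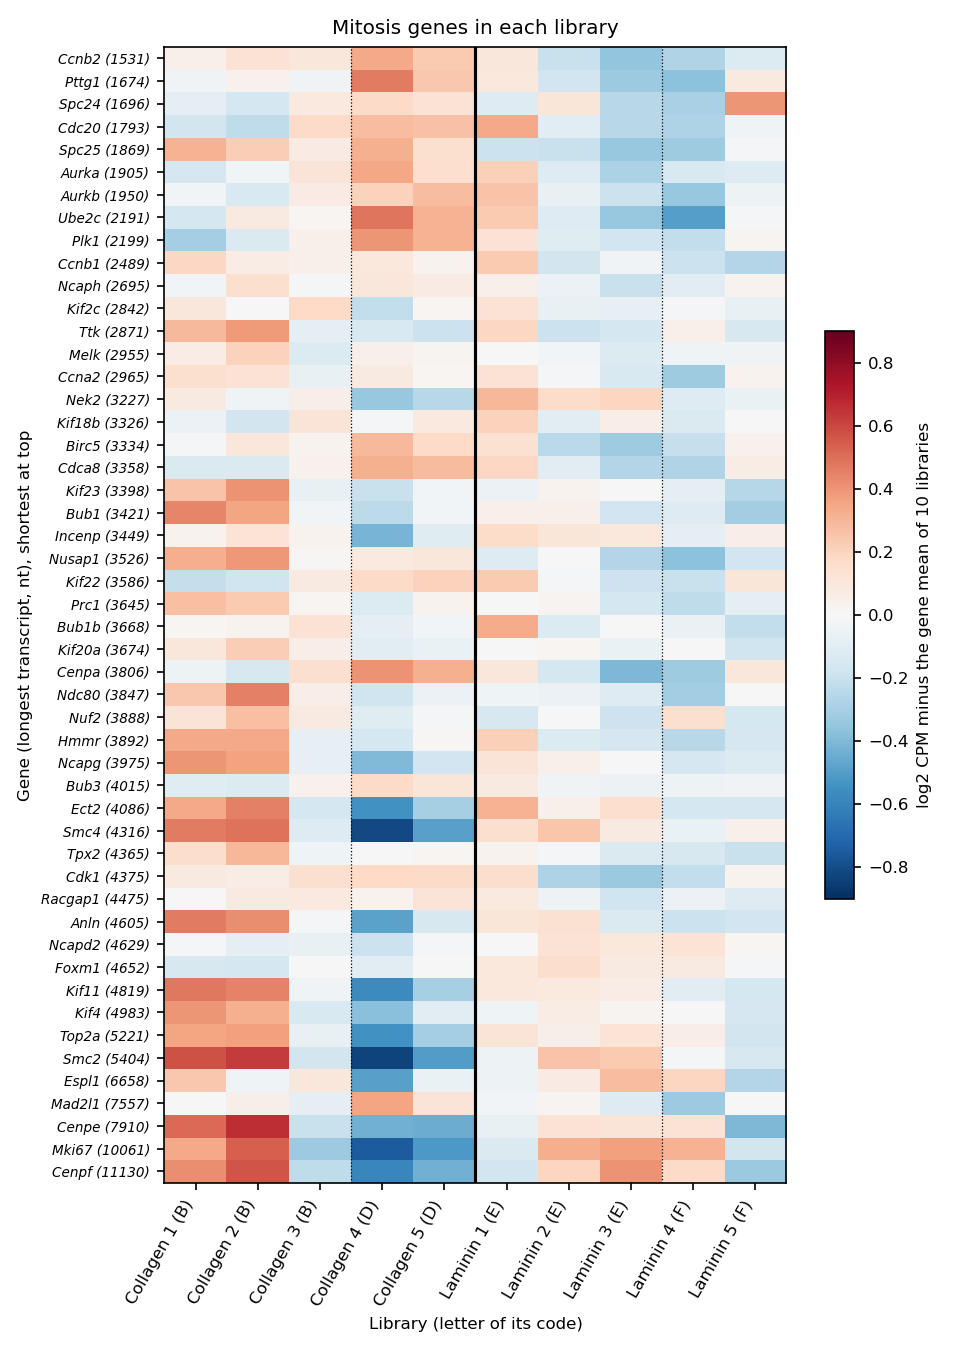
Colour gives log2 CPM of each of the 50 genes in each library minus the gene's mean over the 10 libraries, with genes ordered by transcript length (nt in brackets) and the code letter of each library in brackets. In the lower rows (long transcripts) collagen replicates 1 and 2 are mostly red and replicates 4 and 5 mostly blue, and in many of the top rows (short transcripts) replicates 4 and 5 are red.

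The direction of the letter difference went with transcript length, and the part of GC content was not separated from it. Across the 50 genes, Spearman's rho between the longest annotated transcript and the D minus B difference was -0.61, and across 10781 tested genes with a length it was -0.65, as descriptions over genes that share the same libraries. The 10 mitosis genes that fell had transcripts of 3975 to 11130 nt, and Plk1, which rose, has one of 2199 nt. The GC content of those 10 was 34.8% to 46.6%, and that of Plk1 56.0%. Among long genes of high GC content, Foxm1 (4652 nt, 54.6%) gave 0.04 and Ncapd2 (4629 nt, 54.0%) -0.05, while Espl1 (6658 nt, 56.1%) gave -0.36. Of the 10 genes under 2500 nt, 9 lay above 0 (median 0.27), and of the 12 of 4500 nt or more, 10 lay below 0 (median -0.63), bounds chosen after seeing the values. The summed CPM of the 12 long genes divided by that of the 10 short genes was 3.54, 3.60, 2.47, 1.64 and 2.01 in collagen replicates 1 to 5 and 2.50, 3.37, 3.63, 3.57 and 2.62 in laminin replicates 1 to 5. Collagen thus held both the lowest ratios of the 10 libraries, in replicates 4 and 5, and 2 of the 4 highest, in replicates 1 and 2. Over all genes, the slope of expression on log2 length ran from -0.371 in collagen replicate 4 to 0.183 in collagen replicate 1.

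After removal of each library's dependence on transcript length and GC content, 3 of the 50 genes were lower in D and 1 was higher, beside 4.06% of all genes in either direction, 2.2% lower and 1.86% higher. At an unadjusted p under 0.05 there were 14 of the 50, beside 23.8% of all genes. Smc4 (-0.55, adjusted p = 0.0459), Incenp (-0.49, 0.0474) and Nek2 (-0.38, 0.0464) were lower in edgeR. The higher gene was Mad2l1 (1.01, adjusted p = 0.0402), to which the annotation assigns a longest transcript of 7557 nt. Before the removal it gave 0.25 (adjusted p = 0.195 in edgeR). Counts per gene do not show which transcript was expressed, so the length used may be wrong, here and wherever lengths are used. After the removal Mki67 gave -0.13, Top2a -0.17 and Cenpf 0.04, and none of these passed. Between the matrices, the same correction gave 41 of 50 genes below 0, a median of -0.09 and 0 calls in edgeR. Beside these, 0.965% of all genes were called (0.723% higher), and the share of all genes below 0 was not counted. Unadjusted, 9 of the 50 had p under 0.05, beside 15.1% of all genes. Spc25 stood at -0.30 (adjusted p = 0.0586) and Nusap1 at -0.33 (0.0768).

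**Figure D4:**
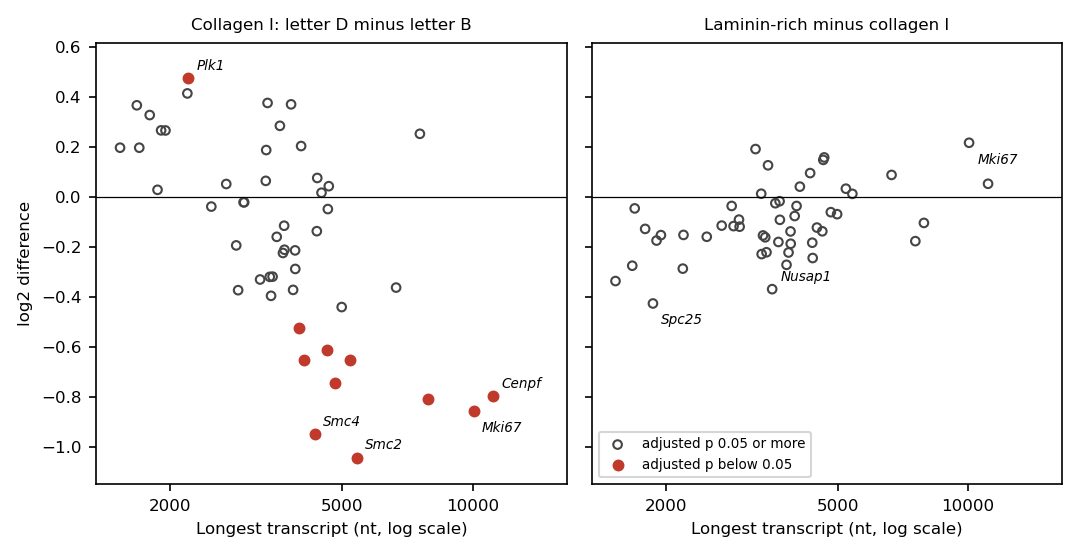
The log2 difference of each of the 50 genes against its longest transcript, between the code letters within collagen (left, D minus B) and between the matrices (right, laminin-rich minus collagen I), with filled points for adjusted p below 0.05. On the left the 10 genes that fell all have transcripts of 3975 nt or more, and on the right the values run from -0.43 to 0.22 and no point is filled.

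Several genes had opposite directions between the matrices depending on which collagen libraries were used. No letter occurs in both matrices, so letter and matrix effects cannot be told apart. Against the D libraries alone, 6 of the 50 genes were lower in laminin and 4 were higher (edgeR with Benjamini-Hochberg adjustment), beside 18.9% of all genes in either direction, 7.96% lower and 10.9% higher. At an unadjusted p under 0.05 there were 23, beside 37.1% of all genes. Against the B libraries alone, 0 were called in edgeR, beside 0.0456% of all genes, and 9 had an unadjusted p under 0.05, beside 11.6%. Below 0 were 28 of the 50 genes against D (median -0.04) and 39 against B (median -0.14), shares not counted over all genes. Both comparisons use the same 5 laminin libraries. The 4 higher genes were Mki67 (0.77 against D, -0.07 against B), Smc4 (0.71 and -0.21), Smc2 (0.70 and -0.32) and Top2a (0.43 and -0.19). The 6 lower genes included Ube2c (-0.55 and -0.11), Pttg1 (-0.51 and -0.12), Cenpa (-0.51 and -0.11), Ccnb2 (-0.48 and -0.25) and Plk1 (-0.45 and 0.06). Spc25, also lower against D, gave nearly the same difference against either letter, -0.47 and -0.42, and Nusap1 gave -0.30 and -0.43.

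Within the groups, the 50 genes varied together only in part. After each group's mean was removed, Pearson's r over the 10 libraries had a median of 0.21 over the 1225 pairs, beside a median of 0 over pairs of all genes, and 58.9% of pairs were above 0, values that share library preparation and depth. Top2a and Smc4 gave r = 0.95 and Mki67 and Cenpf 0.99, and Ube2c and Cenpa 0.86, while Top2a and Ube2c gave -0.59. Only the mean of each matrix was removed, so these values also carry the letter differences and the dependence on transcript length. After the same removal of length and GC dependence, the median was 0.28. The median over pairs of all genes and the r of single pairs are not given after that removal. The 32 genes with TTTGAA or TTCGAA in the promoter window had a median matrix difference of -0.12, and the 10 without it -0.15, with median letter differences of -0.21 and -0.03 and median transcripts of 3826 and 3280.5 nt.

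Exons of 12 of the 50 genes overlap exons of a gene on the opposite strand in the annotation, among them Ccna2 (Exosc9), Cdc20 (Elovl1), Ube2c (Tnnc2), Nusap1 (Oip5), Prc1 (Rccd1) and Plk1 (Gm44985). Whether counting used strand is not given in the sources used here, and these genes' values are uncertain if it did not. Pseudogenes named after Ccnb1, Ccnb2, Kif4 and Kif22 are annotated, and reads shared with such copies may have been split or dropped.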

How the data were processed

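Poly(A) mRNA was measured in 10 libraries, made from 30 ng of RNA with a stranded kit per the labels' protocols. The authors deposited 1 table of raw read counts per gene symbol, with no normalization. DESeq2 and the build GRCm38 (mm10) are named in the submitters' processing notes. Which aligner, counter, strand setting and annotation were used is not given in the sources used here. Columns were mapped to samples by the library code in the labels.

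Genes were filtered with filterByExpr, scaled with TMM and fitted with edgeR 4.0.16 in R 4.3.3, by a two-sided quasi-likelihood F test with the matrix as sole term, with Benjamini-Hochberg adjustment over the 10789 genes tested. SE is the log2 difference divided by the square root of F. CPM uses the TMM-scaled library size. The letters were fitted as 4 groups. Per-library trends used natural splines (5 degrees of freedom each) of log2 CPM (prior count 2) on length and GC content of the longest transcript in GENCODE M21 (matched by symbol for 18338 genes), entered as an offset. Matrix is not in that trend, so a matrix effect running along length or GC content is taken out too. Alternatives were DESeq2 1.42.0, limma-voom (limma 3.58.1), scaling by DESeq2 size factors or by library size alone, no filter or one of 1 CPM in 5 libraries, a block for the replicate number, each library, letter B or letter D left out, and the 4 letters.

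The edgeR fit between matrices was tested on simulated counts of 10789 genes, made without letter or length differences. It called 24 of 69 genes changed 1.5-fold (34.8%), 58 of 70 changed 2-fold and 58 of 61 changed 3-fold, with 9 false calls. Most changes of 1.5-fold would thus be missed by this test. The members and gene lists were chosen with earlier results of these data known. Per-library values are given for 14 members whatever their values (Mki67, Top2a, Cdk1, Ccnb1, Plk1, Foxm1, Bub1b, Bub3, Cdc20, Birc5, Cenpf, Kif11, Anln and Smc4), for up to 5 per direction with the largest matrix difference and up to 4 per direction with the largest letter difference. Mybl2, Cdkn1a, Pcna and Ccnd1 were fixed among the other genes, and examples beyond these were chosen after their values were seen.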

Additional observations from a re-analysis of the deposited data

Results flagged for a closer look

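In 102 groups of 5 libraries (the 50 genes and their sum, in each matrix), 3 held an extreme value. By chance about 5% of groups, here 5.1, would. Top2a was at 1137 CPM in laminin replicate 5, against 1319.6 CPM in the next lowest laminin library. Bub3 was at 179 CPM in laminin replicate 1, against 166 CPM in the next highest. Hmmr was at 218 CPM in laminin replicate 1, against 173 CPM in the next highest.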

How the results depend on the processing

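Over all genes, 16 were called with the settings used, 209 by DESeq2, 29 without a filter, 0 with the replicate block, 99 with the 4 letters, 104 with the length and GC trend removed, 2083 without letter B, 5 without letter D and 0 to 64 without single libraries. Among the 50 mitosis genes, 0 were called under these and the other settings, single libraries left out included, except 2 by DESeq2 and 10 without letter B. The number below 0 ran from 35 to 43, and the median from -0.15 to -0.10, without single libraries. Without letter B, 28 lay below 0 and the median was -0.04. Between letters D and B, 11 mitosis genes were called, 4 with the trend removed and 0 to 17 without single libraries, where 0 to 3655 of all genes were called. With the replicate block, 0 mitosis genes were called and their median was -0.11. Whether libraries of the same number are paired is not stated in the labels. Their deviations correlated from -0.33 to 0.48 over the 5 numbers, and 1 of 5 collagen libraries was best matched by its own number. These correlations cannot settle the question, because the deviations also carry each library's dependence on transcript length. Of the 26 members with values followed, 13 kept their direction in all 21 alternatives. The direction changed without letter B for Bub1b (0.027), Kif11 (0.41), Anln (0.24) and Cenpe (0.41), and without letter D for Mki67 (-0.067), Top2a (-0.19), Plk1 (0.058), Bub3 (0.049), Cdc20 (0.013), Cenpf (-0.21), Smc4 (-0.21), Smc2 (-0.32) and Cdca8 (0.0079). It also changed with the 4 letters for Kif11 (0.034) and Cenpe (0.011), with the trend removed for Top2a (-0.0018) and Cenpf (-0.14), and for Smc2 without a filter (-0.0093) or with 1 CPM in 5 libraries (-0.0025). Without single libraries it changed for Top2a (-0.076 to 0.12), Bub1b (-0.11 to 0.033), Bub3 (-0.093 to 0.0037), Cenpf (-0.065 to 0.21), Kif11 (-0.18 to 0.048), Smc4 (-0.051 to 0.23), Smc2 (-0.14 to 0.18) and Cenpe (-0.21 to 0.059). The cause was not tested. The 95% intervals given in the report come from the fit with the matrix as sole term, so they do not bound a matrix difference apart from the code letters. Against letter D alone, Smc4 gave 0.71 and Smc2 0.70, above their upper limits of 0.57 and 0.55. Mki67 (0.77, limit 0.72), Top2a (0.43, limit 0.39), Kif11 (0.41, limit 0.34) and Cenpe (0.41, limit 0.37) also lay above theirs. So did Cenpf (0.56, limit 0.54), Ect2 (0.443, limit 0.440) and Anln (0.236, limit 0.230). Against letter B alone, all of these genes lay within their intervals.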
